A study of Mus musculus with 6 samples.

Results

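Wisp2 and the other CCN genes Wisp1, Ctgf, Cyr61 and Nov were followed through single cells sorted from colon tumors of FibCtrl and FibΔZeb1 mice. Their rows were taken by name from the transcript tables of all 6 plates, so the family covered 5 of the 19069 genes listed on any plate. Wisp2 was singled out because its level differed between the genotypes in these data, so that difference is described below without a test, and the other members were taken as its family. Wisp3, the remaining family gene, had 0 transcripts in the wells kept and was left out. According to the study's methods the cells came from AOM/DSS tumors, which form after the mutagen azoxymethane and cycles of dextran sulfate sodium, while the labels give the treatment of every sample as none. On a C57BL/6 background, FibΔZeb1 mice carried Zeb1 fl/fl with the constitutive Col6a1-Cre transgene, which is active in fibroblasts, and FibCtrl mice were littermates negative for Cre. Animals were age-matched and of both sexes, and the labels gave neither an age nor the sex of a mouse. Tumor cells negative for EPCAM, CD45 and CD31 were index-sorted as 1 cell per well and sequenced by SORT-seq, which counts transcripts from their 3′ ends with molecular barcodes, and each plate of 384 wells held 1 mouse (n = 3 mice per genotype).

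CCN proteins are secreted matricellular proteins: they sit in the extracellular matrix, bind integrins, syndecans and LRP receptors, and tune growth factor signals rather than build the matrix. Cyr61 (CCN1) and Ctgf (CCN2) are standard target genes of the YAP/TAZ coactivators and of TGF-beta, Nov (CCN3) is often described as opposing Ctgf, and Wisp1 (CCN4) and Wisp2 (CCN5) were named as Wnt-inducible genes. In connective tissue Ctgf is known for its link to fibrosis and myofibroblasts. Wisp2 is the member that lacks the C-terminal cystine knot module.

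All 5 genes matched a current symbol through RefSeq synonyms and were located in GENCODE M21 on GRCm38, the build used for alignment. Wisp2 (current symbol Ccn5) lies at chr2:163820861-163833146 on the plus strand and has the shortest coding sequence of the 5, at 753 bases in its longest form without the stop codon. Wisp1 (Ccn4, 1101 coding bases) lies at chr15:66891320-66923201 on the plus strand and Nov (Ccn3, 1062) at chr15:54745702-54754039 on the plus strand of the same chromosome. Ctgf (Ccn2, 1044) lies at chr10:24595442-24598683 on the plus strand and Cyr61 (Ccn1, 1137) at chr3:145646976-145649981 on the minus strand. The RefSeq promoter table (GRCm38.p6) held an entry for Cyr61, and none for Wisp2, Wisp1, Ctgf or Nov. The 250 bases before its start site, chr3:145649986-145650235 on the minus strand, are shown because Cyr61 is the member found in the most wells and a reference gene for YAP/TAZ and TEAD activity. Capitals mark CATTCC, the core of the motif bound by TEAD factors, and the TATA box TATAAA:
Cyr61: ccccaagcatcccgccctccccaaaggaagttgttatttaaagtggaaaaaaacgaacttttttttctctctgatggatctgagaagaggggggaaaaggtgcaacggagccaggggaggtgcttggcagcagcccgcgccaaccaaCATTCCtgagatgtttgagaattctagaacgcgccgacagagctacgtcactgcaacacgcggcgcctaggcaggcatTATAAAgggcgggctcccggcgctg
The TEAD motif began 103 bases and the TATA box 25 bases before the start site. On either strand, CATTCC occurred in 12.6% and TATAAA in 12.4% of 32851 RefSeq promoter windows of the same length. The E-box CAGGTG, a sequence that ZEB factors can bind, had no match in this window and occurred in 17.2% of all windows.

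Of 2304 wells, 1233 had 100 to 6000 genes and under 10% of transcripts from the mitochondrial chromosome, and 546 of these were gated as fibroblasts by marker lists that hold no CCN gene. The fibroblast-gated wells numbered 175, 19 and 56 in FibCtrl mice 1, 3 and 4, and 162, 119 and 15 in FibΔZeb1 mice 2, 5 and 6, with summed depths from 243377 to 2335434 transcripts per mouse. Despite the sort, 386 kept wells were gated as neutrophils (7.52% to 76.9% of the kept wells of a mouse, highest in mice 3 and 6), 80 as epithelial and 78 as pericytes, and the fibroblast-gated wells of a mouse held 0 to 5 transcripts of Ptprc, which encodes CD45, and 1 to 44.2 of Epcam. Mouse 6 came from another sequencing run than the other 5 mice, according to the run names on the tables. The same 384 well barcodes served every plate by design. The fibroblast marker Pdgfra stood at 596 to 1196 transcripts per 1000000 (CPM) in these wells. Zeb1, the deleted gene, was at 112, 105 and 96.8 CPM in the fibroblast-gated wells of FibCtrl mice 1, 3 and 4 and at 59.1, 72.3 and 65.7 CPM in those of FibΔZeb1 mice 2, 5 and 6, without overlap. Its log2 fold change was -0.64 ± 0.21 (SE; adjusted p = 1.0 by the quasi-likelihood test of edgeR, adjusted by Benjamini-Hochberg over all genes tested, where a gene with an adjusted p under 0.05 is called below), and whether the 3′ ends that were counted lie in the deleted part is not given in the sources used here. Between subtypes, Zeb1 was higher in iCAF-gated wells (1.12 ± 0.20, adjusted p = 0.0049) and lower in myCAF-gated wells (-1.07 ± 0.20, adjusted p = 0.023) than in the other fibroblast-gated wells of the same mice.

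Wisp2 was rare. It was counted in 31 of 546 fibroblast-gated wells, which held 111 estimated transcripts in all, and 25 of these wells and 90.1% of the transcripts came from FibΔZeb1 mice. The gene was absent from the table of mouse 3 altogether. In FibCtrl mice 1, 3 and 4 it reached 6, 0 and 5 transcripts in 3, 0 and 3 wells, and in FibΔZeb1 mice 2, 5 and 6 it reached 36.0, 57.1 and 7 transcripts in 9, 12 and 4 wells. Mouse 5 thus held 51.4% of all Wisp2 transcripts in fibroblast-gated wells, and 1 of its wells held 30.1 of them. At the other end, 12 of the 31 wells had 1 transcript each and 7 had 2.

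**Figure D1:**
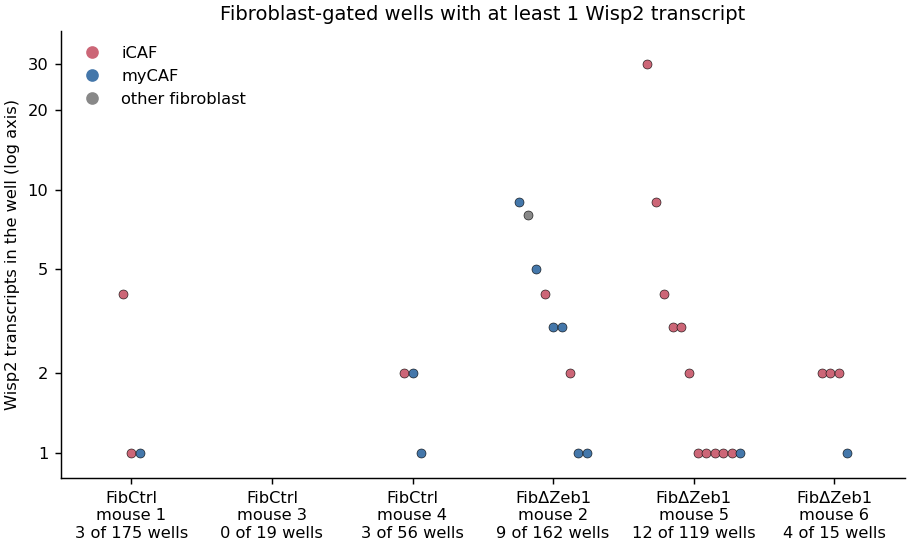
Wisp2 transcripts, on a log axis, in each fibroblast-gated well with at least 1, by mouse, with the subtype gate in color. The 6 FibCtrl wells lie at 1 to 4 transcripts, the FibΔZeb1 wells reach 9 in mouse 2 and 30 in mouse 5, and the wells of mouse 5 are iCAF-gated except 1.

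The 31 wells were deeper than the others, with a median of 16089 against 11636 transcripts, and shallow wells can miss a gene at this level. The share of fibroblast-gated wells with Wisp2 was 1.71% (95% Wilson interval 0.585 to 4.92) in mouse 1, 0% in mouse 3 (upper bound 16.8) and 5.36% (1.84 to 14.6) in mouse 4. In FibΔZeb1 mice it was 5.56% (2.95 to 10.2) in mouse 2, 10.1% (5.86 to 16.8) in mouse 5 and 26.7% (10.9 to 52.0) in mouse 6, and these intervals cover counting error only. The shares of mice 4 and 2 were nearly the same, so by share the genotypes met at their edges. With every well thinned to 1000 barcodes, which left 164, 19 and 55 wells in mice 1, 3 and 4 and 157, 117 and 15 in mice 2, 5 and 6, the expected shares were 0.148%, 0% and 0.459% in FibCtrl mice 1, 3 and 4, and 1.21%, 2.95% and 4.90% in FibΔZeb1 mice 2, 5 and 6. Among neutrophil-gated wells, which should lack the gene, 1 of 386 (0.259%, median depth 1436 transcripts) had a Wisp2 transcript.

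As a level, Wisp2 stood at 2.78, 0 and 7.22 CPM in FibCtrl mice 1, 3 and 4 and at 15.4, 55.1 and 28.8 CPM in FibΔZeb1 mice 2, 5 and 6. The lowest FibΔZeb1 mouse was above the highest FibCtrl mouse, and the count of 0 in mouse 3 allows up to 11.2 CPM. The means were 3.33 ± 3.64 and 33.1 ± 20.2 CPM (SD, n = 3 each), a 9.93-fold difference that fitted as a log2 fold change of 3.16 ± 0.73 (SE, no test, since Wisp2 was chosen by this contrast). Of 8619 genes tested in the same contrast, 0% were called. In these sums, fewer cells that make a transcript and less of it per cell cannot be told apart. Without the well richest in Wisp2 in each mouse the means were 1.81 and 19.7 CPM, and without the 3 richest wells of each mouse they were 0 and 8.42 CPM, since no FibCtrl mouse had more than 3 wells with the gene. The fold was 6.63 without mouse 5, 6.62 without mouse 3, 23.8 without mouse 4 and 10.6 without mouse 6, that is within the run of the other 5 mice. With wells of up to 30% mitochondrial transcripts included it was 14.8. The whole plates, poor wells included, held 20 Wisp2 transcripts in 10 wells of FibCtrl mice and 127 in 34 wells of FibΔZeb1 mice.

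Of the Wisp2 transcripts in fibroblast-gated wells, 67.6% lay in 19 iCAF-gated wells, and the mice differed in how many such wells they had. iCAF-gated wells, gated on a list of fibroblast markers such as Pi16, Cd34 and C3, made up 38.3%, 21.1% and 7.14% of the fibroblast-gated wells in FibCtrl mice 1, 3 and 4 and 13.6%, 76.5% and 20% in FibΔZeb1 mice 2, 5 and 6. The list shares C3 with the study, which stained it as an iCAF marker in orthotopic tumors. It holds neither Ccl2 nor Cxcl1, the study's iCAF markers in cultured fibroblasts. In single cells the study scored published iCAF gene signatures, another measure than this gate. The gate name alone does not show an inflammatory state. The summed level of the 12 iCAF markers ranged from 2110 to 8445 CPM in FibCtrl mice, with 9 to 12 detected, and from 3048 to 8725 CPM in FibΔZeb1 mice, with 8 to 12 detected, and Dpp4, another marker of the list, was at 0 in mice 2, 3, 4 and 6. In mouse 5, 98.2% of the Wisp2 transcripts lay in iCAF-gated wells, whereas in mouse 2, where myCAF-gated wells prevailed (73.5% of wells), 16.7% did. Within iCAF-gated wells alone the mean was 14.6 ± 20.5 CPM in FibCtrl and 77.6 ± 59.4 CPM in FibΔZeb1 mice, and within myCAF-gated wells it was 2.54 ± 3.6 and 8.71 ± 3.93 CPM (SD, n = 3 each). Both strata had the higher mean in FibΔZeb1 mice, but the genotypes overlapped in both. In iCAF-gated wells FibCtrl mouse 4 was at 38.1 CPM and FibΔZeb1 mouse 2 at 19.7 CPM. In myCAF-gated wells FibCtrl mouse 4 was at 6.65 CPM and FibΔZeb1 mouse 5 at 4.76 CPM. The myCAF values of mice 5 and 6 rested on 1 transcript each, and mice 3, 4 and 6 had only 4, 4 and 3 iCAF-gated wells. The part of subtype composition in the difference was not tested.

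The wells with Wisp2 were also read for markers of other cell types. Their median well had all 12 fibroblast markers and 6 of 12 iCAF markers, against 11 and 4 in fibroblast-gated wells without Wisp2. Both sets had a median of 6 of 12 myCAF markers, and of 0 epithelial, 0 endothelial and 1 neutrophil marker. Epcam was counted in 2 and Ptprc in 1 of the 31 wells. The well with 30.1 Wisp2 transcripts held 22803 transcripts in all, with all 12 fibroblast markers, 3 of 12 epithelial markers and neither Epcam nor Ptprc. It had 8 of 12 iCAF and 7 of 12 myCAF markers, so its iCAF gate led narrowly. Over all fibroblast-gated wells the 12 epithelial markers summed to 112 to 172 CPM in FibCtrl mice, with 6 to 12 detected, and to 9.42 to 432 CPM in FibΔZeb1 mice, with 8 to 12 detected. The 12 neutrophil markers summed to 132 to 527 CPM and 107 to 423 CPM. Neither list separated the genotypes, and their part in the Wisp2 difference was not tested.

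The question whether deletion of Zeb1 in fibroblasts altered the rest of the family gave no called gene: 0 of the 4 other members passed, as did 0% of all 8619 genes tested by edgeR, with 128 genes at an unadjusted p under 0.05 and 1 gene called by DESeq2. Ctgf, the matrix-inducing member, stood at 204, 191 and 395 CPM in FibCtrl mice 1, 3 and 4 and at 454, 231 and 272 CPM in FibΔZeb1 mice 2, 5 and 6. These ranges overlapped, and the log2 fold change was 0.32 ± 0.34 (adjusted p = 1.0). Cyr61, an early YAP/TAZ target, was at 1034, 801 and 1108 CPM against 970, 1217 and 412 CPM, with the lowest value in mouse 6 (log2 fold change -0.12 ± 0.39, adjusted p = 1.0). Nov was at 59.0, 14.9 and 15.9 CPM against 23.1, 67.6 and 8.22 CPM, so that 1 mouse of each genotype was high (0.09 ± 0.70, adjusted p = 1.0). Wisp1 was at 54.7, 120 and 116 CPM against 54.4, 36.6 and 247 CPM (0.10 ± 0.65, adjusted p = 1.0). Its high value in mouse 6 came from 60.2 transcripts, of which 30.1 lay in 1 well. Without mouse 6, the mouse from the other run, the log2 fold changes of Wisp1, Ctgf, Cyr61 and Nov were -0.93, 0.45, 0.22 and 0.34, so Wisp1 and Cyr61 changed sign. The sign of Wisp1 also changed without mouse 1, which shared the run of the others, and in further settings given below. The differences by genotype were within the spread between mice, and with n = 3 they do not show that the 4 genes were equal in both genotypes.

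**Figure D2:**
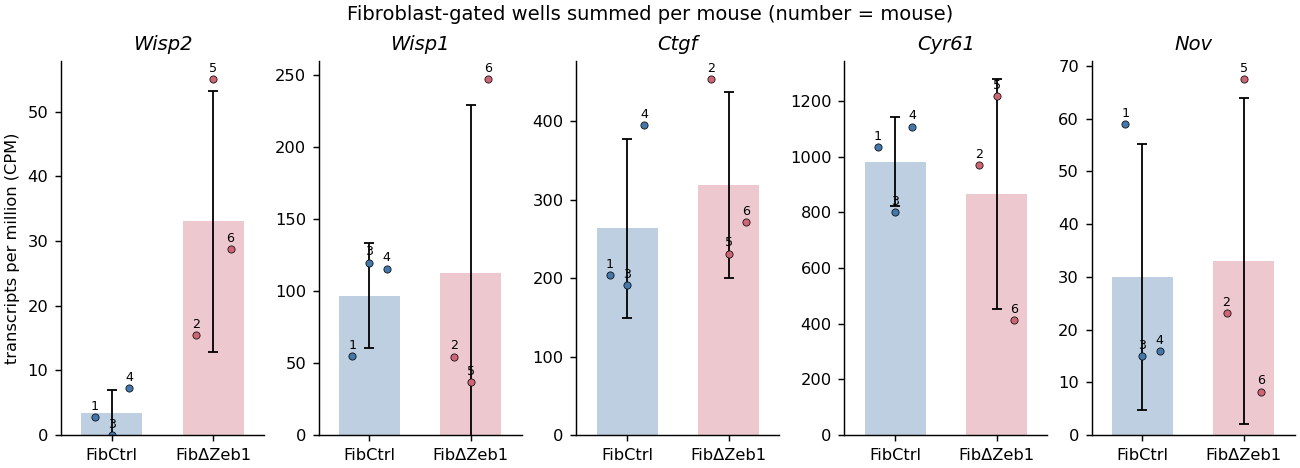
Level of each CCN gene in CPM over the summed fibroblast-gated wells of each mouse (points, with the mouse number), with the mean (bar) and SD (line) of 3 mice per genotype. The genotypes do not overlap for Wisp2, which was chosen by this difference, and overlap for Wisp1, Ctgf, Cyr61 and Nov.

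The members were then compared between marker-gated cell types. The gate lists hold no CCN gene, but the members were chosen with earlier results of these data known. In every gate the sums per mouse were compared within the same mice. Of 33 kept wells with Wisp2, 31 were fibroblast-gated, 1 was a smooth muscle well and 1 a neutrophil well. Over mice with at least 5 wells in a gate its median was 19.7 CPM in iCAF-gated wells (range 5.77 to 74.7, n = 3) and 5.71 CPM in myCAF-gated wells (range 0 to 12.6, n = 6), ranges that overlapped. It was at 0 in 37 telocyte-gated wells, 78 pericyte-gated wells, 80 epithelial wells and 85 other leukocyte wells. The 95% Wilson upper bounds for the share of wells with a counted transcript were 9.41%, 4.69%, 4.58% and 4.32%, which does not bound the share of cells that express the gene. These bounds pool the wells of all mice, cover counting error only and leave out the spread between mice. Median depths were 12413, 11898, 10961 and 1665 transcripts, so a gene at this level would be missed most easily in the leukocyte wells. A count of 0 (limit of 3 transcripts over the gate) allows levels of up to 5.80, 3.04, 3.35 and 14.8 CPM.

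Against the other fibroblast-gated wells of the same mice, Wisp2 had a log2 fold change in iCAF-gated wells of 1.97 ± 0.64 (3 mice, mouse as block), which did not pass (edgeR adjusted p = 0.087). Of 8926 genes tested in this contrast 9.85% were called, so a call for a single member has that as background. The level was 5.77, 19.7 and 74.7 CPM in the iCAF-gated wells of mice 1, 2 and 5, and the call depended on how genes and wells were filtered: the adjusted p was 0.0021 with no filter on low counts and 0.034 with wells of up to 30% mitochondrial transcripts. Wisp2 did not pass in the other 8 alternatives that tested it in this contrast. Among these was the fit without mouse 5, where the log2 fold change was 1.10 (adjusted p = 0.50). In myCAF-gated wells, gated on contractile and matrix genes such as Acta2 and Tagln, Wisp2 differed from the other fibroblast-gated wells by -1.62 ± 0.52 (4 mice, adjusted p = 0.16, or 0.019 with no filter). It did not pass there in the other 9 alternatives that tested it. The iCAF and myCAF comparisons share most of their wells and are not independent of each other.

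Nov rose in iCAF-gated wells and was the 1 member of 5 called there, by a log2 fold change of 2.54 ± 0.47 (edgeR adjusted p = 0.0067). Its level was 133, 39.4 and 85.2 CPM in the iCAF-gated wells of mice 1, 2 and 5, all above the range of 8.87 to 19.0 CPM in myCAF-gated wells of the 6 mice. The mice with few iCAF-gated wells were left out of this contrast and differed. Mouse 4 was at 133 CPM from 4 wells, mouse 3 at 17.3 CPM from 1 transcript in 4 wells, and mouse 6 at 0 in 3 wells. Of the 115 transcripts in mouse 1, 47.1% lay in 1 well, and without that mouse the log2 fold change was 1.5 (adjusted p = 0.15). In myCAF-gated wells Nov fell by 2.29 ± 0.38 on the log2 scale (adjusted p = 0.011, against 2.35% of 9050 genes called), and without mouse 1 the value was -1.61 (adjusted p = 0.11). By share, 24.6% of iCAF-gated and 8.12% of myCAF-gated wells had Nov, though the iCAF-gated wells were shallower (median 9848 against 13373 transcripts). Of neutrophil-gated wells 0.259% did, at a median depth of 1436 transcripts.

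Ctgf had the opposite order. Its median was 322 CPM in myCAF-gated wells (range 143 to 558, n = 6) and 141 CPM in iCAF-gated wells (range 82.0 to 235, n = 3). The log2 fold change was -1.03 ± 0.34 in iCAF-gated wells (edgeR adjusted p = 0.090) and 1.27 ± 0.43 in myCAF-gated wells (adjusted p = 0.20), and neither passed. Both passed with no filter on low counts (adjusted p = 5.0e-05 and 4.3e-07) and when each well had to lead the next gate by a margin of 0.15 in its share of markers detected (adjusted p = 0.0062 and 0.0011). The iCAF difference also passed with library size alone as the scaling (0.041) and with wells of up to 30% mitochondrial transcripts (0.032). By share, 52.8% of myCAF-gated, 30.9% of iCAF-gated and 2.33% of neutrophil-gated wells had Ctgf. Among the mice compared, mouse 5 went against the others, with 235 CPM in its iCAF-gated and 143 CPM in its myCAF-gated wells, and 32.5% of its Ctgf transcripts in iCAF-gated wells lay in 1 well. Without that mouse the log2 fold changes were -1.65 (adjusted p = 0.0023) and 1.88 (adjusted p = 0.0086). Ctgf did not pass in the other 6 alternatives of the iCAF contrast and the other 9 of the myCAF contrast. Among these were DESeq2, barcode counts and no mouse block.

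Wisp1 had its highest median in telocyte-gated wells, gated on Wnt5a, Bmp7, Nrg1 and other markers of the subepithelial fibroblasts that signal to the crypt. The level there was 150 and 270 CPM in FibCtrl mice 1 and 4 and 39.3 and 56.9 CPM in FibΔZeb1 mice 2 and 5, from 8, 14, 5 and 5 wells, the latter values resting on 3 transcripts each. The mice with fewer wells were the highest, FibΔZeb1 mouse 6 at 701 CPM from 3 wells and FibCtrl mouse 3 at 516 CPM from 2 wells, so the genotypes overlapped. Of the 60.2 Wisp1 transcripts in the fibroblast-gated wells of mouse 6, 52.2 lay in those 3 wells. The median was 67.3 CPM in myCAF-gated wells (range 38.1 to 128, n = 6) and 34.6 CPM in iCAF-gated wells (range 25.4 to 49.3, n = 3). Since only 1 mouse had 10 telocyte-gated wells, this contrast took mice with at least 5. Wisp1 differed by a log2 fold change of 1.15 ± 0.38 (4 mice, edgeR adjusted p = 0.26), and 0 of the 4 members tested were called, against 0.596% of 6876 genes. With wells of up to 30% mitochondrial transcripts the adjusted p of Wisp1 was 0.046, and Wisp1 did not pass in the other 9 alternatives. By share, 56.8% of telocyte-gated, 31.4% of myCAF-gated and 18.3% of iCAF-gated wells had Wisp1, against 0.777% of neutrophil-gated wells. The telocyte share pools mice that differed, with Wisp1 in 4 of 8 and 10 of 14 wells of FibCtrl mice 1 and 4. It was in 1 of 5 wells in each of FibΔZeb1 mice 2 and 5, in 2 of 2 in mouse 3 and in 3 of 3 in mouse 6. No difference of Wisp1 passed in the iCAF (-0.60 ± 0.31, adjusted p = 0.30) or myCAF contrast (-0.16 ± 0.27, adjusted p = 0.89).

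Cyr61 had similar medians in the fibroblast subtypes. The median was 1004 CPM in iCAF-gated, 1039 CPM in myCAF-gated and 980 CPM in telocyte-gated wells, with ranges of 880 to 1017, 412 to 1838 and 762 to 1929 CPM. Neighbors in this order did not differ beyond their spread, and its log2 fold change was -0.18 ± 0.19 in the iCAF and 0.16 ± 0.17 in the myCAF contrast (edgeR adjusted p = 0.67 and 0.78). It was counted in 74.5% of all fibroblast-gated wells and in 5.70% of neutrophil-gated wells, whose median depths were 11772 and 1436 transcripts. Epithelial wells had 45.0%, with a median level of 352 CPM. In the 7 glia-gated wells 5 had Cyr61, at 3780 CPM over the 7, of which 61.5 transcripts came from 1 well of mouse 4.

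**Figure D3:**
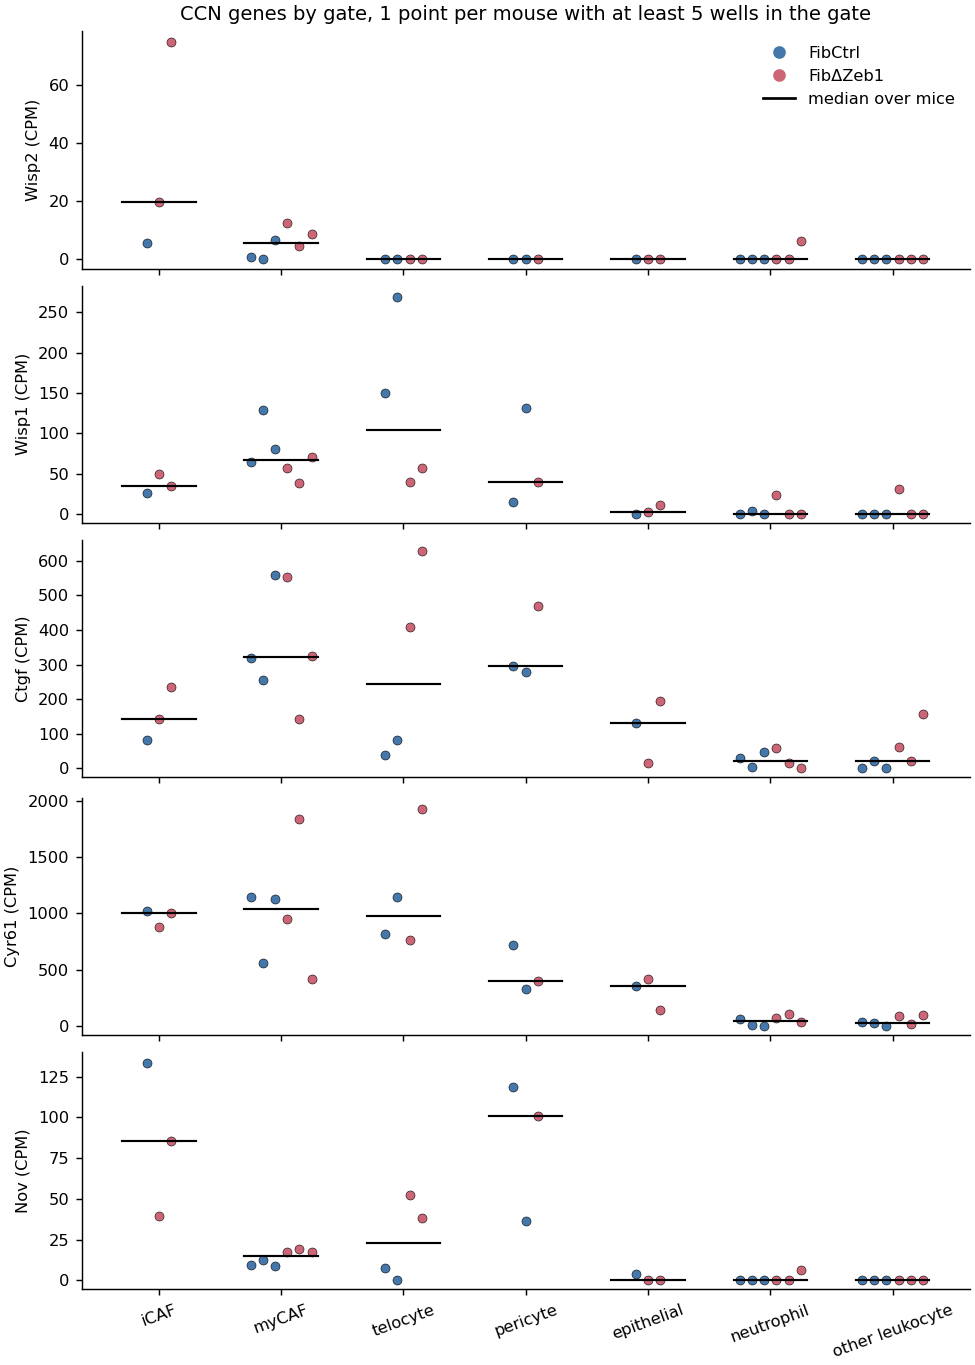
Level of each CCN gene in CPM by gate, with 1 point per mouse that had at least 5 wells in the gate, colored by genotype, and the median over mice as a line. Wisp2 lies at 0 in telocyte-gated, pericyte-gated and epithelial wells, Nov is high in iCAF-gated and pericyte-gated wells, and Cyr61 is similar across the fibroblast subtypes.

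Pericyte-gated wells, gated on Rgs5, Notch3 and other markers of mural cells, differed from fibroblast-gated wells in 2 of the 4 members tested, in a contrast that called 18.2% of 8388 genes. Cyr61 fell by 1.29 ± 0.26 on the log2 scale (3 mice, edgeR adjusted p = 0.0013). It stood at 720, 401 and 329 CPM in the pericyte-gated wells of mice 1, 2 and 4, below 1034, 970 and 1108 CPM in the fibroblast-gated wells of the same mice. Nov was higher, at 119, 101 and 36.6 CPM against 59.0, 23.1 and 15.9 CPM, a log2 fold change of 1.44 ± 0.33 (adjusted p = 0.0033). In mice 1 and 2 the pericyte-gated well richest in Nov held 87.5% and 55.3% of its transcripts. This call was lost with DESeq2 (adjusted p = 0.052), with no mouse block (0.14) and without mouse 2 (log2 fold change 0.91, adjusted p = 0.27), which held 39 of the 78 pericyte-gated wells. Ctgf (-0.09 ± 0.25, adjusted p = 0.89) and Wisp1 (-0.49 ± 0.33, adjusted p = 0.40) did not pass. Wisp2 had no transcript in pericyte-gated wells and was removed by the filter.

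**Figure D4:**
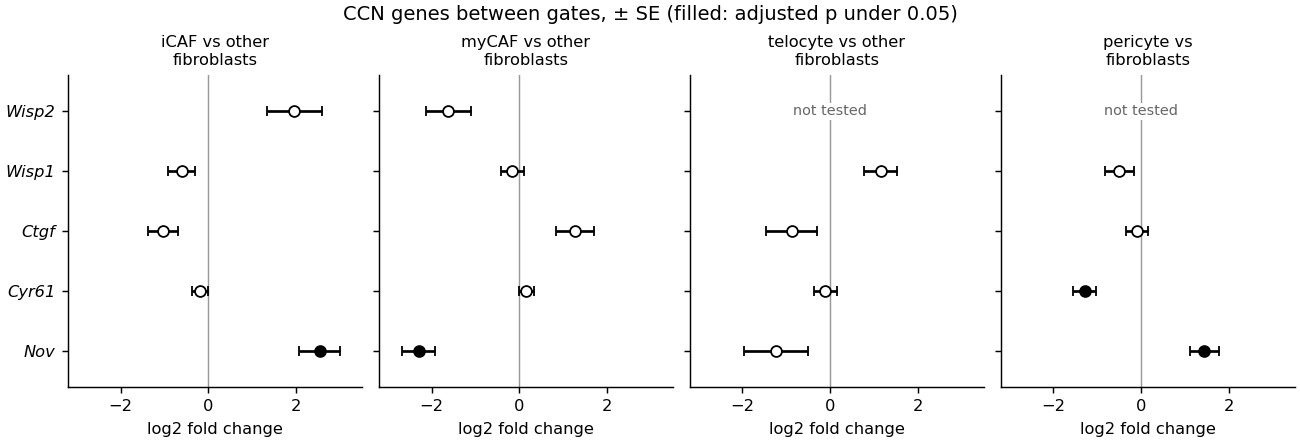
Log2 fold change (± SE) of each CCN gene between gates within the same mice, from edgeR, with filled points for an adjusted p under 0.05. Nov is filled in the iCAF, myCAF and pericyte panels and Cyr61 in the pericyte panel, and Wisp2 and Ctgf point in opposite directions in the iCAF and myCAF panels.

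Genes that act with the family were counted from 6 lists. By genotype none of the 18 YAP/TAZ target genes, 10 YAP/TAZ and TEAD factors, 11 TGF-beta target genes, 8 Wnt target genes, 10 CCN receptor genes and 14 immediate early genes tested was called. The 8 Wnt target genes had a median log2 fold change of -1.06 against 0.01 over all genes, with Nkd1, a feedback inhibitor of Wnt signaling, at -2.10 ± 0.69 and the Wnt antagonist gene Dkk2 at -2.30 ± 1.28 (both adjusted p = 1.0). The immediate early genes had a median of 0.45, with Ier3 at 0.61 ± 0.26. The YAP/TAZ targets had a median of 0.13, with Igfbp3 at 1.27 ± 0.65 and Nuak2 at -0.75 ± 0.33, none of which passed.

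The counts of these lists were not recomputed without single mice. In iCAF-gated wells, where 9.85% of all genes were called, 4 of 8 Wnt target genes fell and none rose (edgeR adjusted p from 5.4e-04 to 0.044). Nkd1 fell by 2.44 ± 0.67 on the log2 scale, and the secreted Wnt inhibitors Wif1 and Notum and the transcription factor Lef1 had 7, 3 and 1 transcripts in the iCAF-gated wells of the 3 mice against 293, 42.1 and 69.0 in their other fibroblast-gated wells. Of 14 immediate early genes, which stress and serum induce within minutes, 6 rose and none fell, among them Nr4a1 by 1.80 ± 0.24 and Fosb by 1.15 ± 0.14 (adjusted p up to 0.026 over the 6). Among 18 YAP/TAZ target genes, 2 fell (Foxf2 by 3.02 ± 0.39 and Ptpn14 by 2.36 ± 0.65) and none rose, and of 10 factors of that pathway Tead1, a DNA-binding partner of YAP, fell by 0.77 ± 0.21 (adjusted p = 0.047). These shares of both YAP/TAZ lists were near that of all genes and are no result about the lists. TGF-beta target genes moved both ways, with 5 of 11 lower, such as Tgfbi (-2.06 ± 0.26), and 3 higher, such as the feedback inhibitor Smad7 (1.39 ± 0.21). Of 10 CCN receptor genes the integrin genes Itgav (-1.13 ± 0.21) and Itgb1 (-0.75 ± 0.18) fell, and Itga5 (1.02 ± 0.20) and Lrp1 (0.67 ± 0.16) rose. In myCAF-gated wells, where 2.35% of all genes were called, 2 of 12 TGF-beta target genes were lower, Smad7 (-1.14 ± 0.18) and Tnfrsf12a (-0.77 ± 0.16). Of 14 immediate early genes Ier3 was lower (-0.88 ± 0.20). None of the 18 YAP/TAZ target genes, 10 YAP/TAZ and TEAD factors, 10 Wnt target genes and 10 CCN receptor genes passed. Over all genes, 149 of the 213 called were lower too, and so few calls are no result about the lists. In telocyte-gated wells (0.596% of all genes called) Klf4 fell by 2.29 ± 0.32 (adjusted p = 0.0079) and no other listed gene was called.

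In pericyte-gated wells, where 18.2% of all genes were called, the YAP/TAZ target genes split, with 5 of 18 higher and 5 lower (edgeR adjusted p up to 0.042). Arhgef17 (2.75 ± 0.24), Ajuba (2.71 ± 0.31), Crim1 (2.40 ± 0.29), Tgfb2 (1.56 ± 0.26) and Amotl1 (0.73 ± 0.24) were higher. Ccdc80 (-3.03 ± 0.29), Gadd45a (-2.97 ± 0.64), Foxf2 (-1.64 ± 0.38) and Rbms3 (-0.94 ± 0.27) were lower, as was Igfbp3, with 0 transcripts in pericyte-gated and 369 in fibroblast-gated wells of the 3 mice. Cyr61 had the sign of the latter genes, and 0 of 11 YAP/TAZ and TEAD factors were called. Of 10 CCN receptor genes 2 rose, Notch1 (2.02 ± 0.35) and Itgb5 (1.41 ± 0.24), and 4 fell, among them Lrp1 (-2.38 ± 0.30) and the syndecan gene Sdc4 (-1.38 ± 0.28). Of 11 TGF-beta target genes 3 rose and 4 fell, with the collagen gene Col4a1 at 1.78 ± 0.25 and the feedback inhibitor gene Pmepa1 at -3.50 ± 0.29. The Wnt target genes had 3 of 5 lower, Dkk2 (-2.52 ± 0.51), Nkd1 (-1.56 ± 0.48) and Wif1, which had 1 transcript against 519. Of 14 immediate early genes Klf4 (-1.83 ± 0.26), Egr1 (-1.33 ± 0.25) and Ier2 (-1.31 ± 0.26) fell and Nr4a1 (0.84 ± 0.25) rose.

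Within fibroblast-gated wells the members were also read together. Of the 31 wells with Wisp2, 26 had Cyr61, 19 had Ctgf, 15 had Wisp1 and 5 had Nov, that is 83.9%, 61.3%, 48.4% and 16.1%, against 74.0%, 40.8%, 26.4% and 14.0% of the 515 wells without Wisp2. Within iCAF-gated wells alone Cyr61, Ctgf, Wisp1 and Nov were counted in 14, 10, 8 and 2 of 19 wells with Wisp2 and in 134, 49, 27 and 45 of 172 wells without, so that Cyr61 and Nov had the lower share with Wisp2 there. The wells with Wisp2 were deeper, as given above, and wells of 1 mouse are not replicates, so these shares are a description. Nov was counted in 8.61% of 151 wells with Wisp1 and in 16.2% of 395 wells without, although the wells with Wisp1 had a median of 16150 against 10671 transcripts. Inside iCAF-gated wells the corresponding shares were 25.7% and 24.4%.

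Over 27 sums of at least 10 wells of 1 mouse and 1 gate, the genes whose log2(CPM + 10) followed Wisp2 most closely were Fmo1 (Pearson r = 0.79), Bdh2 (0.77), Ptgis (0.77), Pcolce2 (0.76) and Fgf18 (0.76). Wisp2 itself was over 10 CPM only in sums of FibΔZeb1 mice 2 and 5. In mouse 2 these were iCAF-gated (19.7), myCAF-gated (12.6) and fibroblast-gated wells without a subtype (38.1), and in mouse 5 iCAF-gated wells (74.7). Most other sums had 0, so the r values of Wisp2 rest on few sums of these mice. Fmo1 encodes a flavin monooxygenase, Ptgis the synthase of prostacyclin, Pcolce2 an enhancer of procollagen processing and Fgf18 a growth factor. The closest to Wisp1 were Col12a1 (0.91), Pxdn (0.89) and Lepre1 (0.88), which act in collagen and basement membrane assembly. Lamp1 (0.85), Tspan17 (0.85) and Htra1 (0.84) were closest to Ctgf, and P4hb (0.94), Nbl1 (0.92) and Nfic (0.92) to Cyr61. Nov was followed by Il6 (0.89), the gene of an inflammatory cytokine, Sparcl1 (0.88) and Pcdh19 (0.88). Among the members themselves r was highest between Wisp1 and Cyr61 (0.71) and lowest between Wisp2 and Ctgf (0.21). The sums share mice, plates and depth and take in neutrophil-gated and epithelial wells, so these values are a description of likeness.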

How the data were processed

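Single cells of 6 mice were analysed, 3 FibCtrl and 3 FibΔZeb1. According to the study's methods and the submitters' processing notes, reads were aligned by the authors' sequencing provider with BWA to the GRCm38 transcriptome, and the processing notes also name Cell Ranger 2.1.1. The authors deposited 2 tables per plate: whole-number counts of unique barcodes per gene and well, and estimated counts of transcripts, which correct the barcode counts for barcodes drawn more than once. Estimated counts were used and rounded for tests and for counting wells. Spike-in RNA was left out. Plates held 1575726 to 3699058 transcripts. Of the columns of sample values, 0 were unmapped. No authors' cell annotation was used.

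Kept wells had 100 to 6000 genes and under 10% of transcripts on the mitochondrial chromosome. Each well took the gate whose list had the largest share of markers detected, with at least 3 markers (2 for the iCAF, telocyte and myCAF lists within fibroblasts) and no tie, except that a tie of the leukocyte lists went to neutrophils. Of 546 fibroblast-gated wells, 18 led the next cell type and 134 the next subtype by under 0.15 in that share. No doublet caller was run, since 1 cell was sorted per well. The members and lists were chosen with earlier results of these data known.

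Transcripts were summed per mouse, or per mouse and gate with at least 10 wells in both gates, and tested with edgeR 4.0.16 (quasi-likelihood F test, TMM, filterByExpr, Benjamini-Hochberg over all genes tested, threshold 0.05) in R 4.3.3, with the mouse as block between gates. The genotype and iCAF fits were run on simulated counts with a fixed dispersion and large changes placed in the better-counted genes. That does not test them for genes with few counts. CPM are transcripts per 1000000 of the same sum. P-values by genotype measure the spread between these mice. Between gates, with the mouse as block, they measure how far the difference within a mouse varied over these mice. Alternatives used DESeq2 1.42.0, library size alone, no filter on low counts, barcode counts, a 30% mitochondrial limit, mitochondrial genes named mt- only, all wells without over 1 transcript of Ptprc or Epcam, a gate margin, at least 5 wells, no mouse block, and each mouse or the richest well left out. Thinning to 1000 barcodes gave the expected share of wells with a gene. Named genes were the members, Zeb1, called genes of the 6 lists (the 2 with the smallest p where none was called) and, per member, the 3 genes of highest Pearson correlation (5 for Wisp2). Some called list genes are given only in the counts.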

Additional observations from a re-analysis of the deposited data

How the results depend on the processing

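By genotype edgeR called 0 genes in every setting and DESeq2 called 1. Wisp2 kept its sign in 14 alternatives, but it was chosen by this contrast and these refit the same plates, so that is no support. The small log2 fold changes by genotype changed sign for Wisp1 over all wells without Ptprc or Epcam (-0.078), without its richest well in each mouse (-0.11) and without mouse 1 (-0.20) or 6 (-0.93, range -0.93 to 0.54 without 1 mouse), for Ctgf without mouse 2 (-0.033, range to 0.67), for Cyr61 without mouse 6 (0.22, range from -0.49), and for Nov with the 30% mitochondrial limit (-0.087), with mt- genes only (-0.093), over all wells without Ptprc or Epcam (-0.084) and without mice 3, 4 or 5 (-0.13, -0.26 and -0.87, range to 1.33). No paired analysis was possible because the genotypes share no mouse number, so a replicate block was fitted between gates only.

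Between gates, the number of genes called moved most. For iCAF-gated wells it was 515 with DESeq2, 1356 with no filter on low counts and 207 to 890 without 1 mouse (lowest without mouse 1), against 879. For telocyte-gated wells 10 wells per gate could not be fitted, and the 41 genes became 91 with DESeq2, 286 with no filter, 75 with the 30% limit, 3 with no replicate block and 0 to 101 without 1 mouse (0 without mouse 1 or 5). For myCAF-gated wells the 213 genes became 680 with no filter, 392 with the 30% limit, 599 with a gate margin of 0.15, 35 with no replicate block and 50 to 452 without 1 mouse (lowest without mouse 1, 69 without mouse 2, 104 without mouse 5, highest without mouse 4). For pericyte-gated wells it was 990 to 1539 without 1 mouse (lowest without mouse 2), against 1523. Cyr61 changed sign near 0 in the iCAF contrast without mouse 5 (0.060, range from -0.38), in the telocyte contrast with library size alone (0.010), with no replicate block (0.025) and without mouse 1 (0.020, range from -0.29), and in the myCAF contrast with at least 5 wells (-0.064) and without mouse 5 (-0.0058, range to 0.28). Wisp1 did so in the myCAF contrast with the gate margin (0.42) and without mouse 4 (0.23, range from -0.36), and Ctgf in the pericyte contrast with library size alone (0.024) and without mouse 4 (0.13, range from -0.27). The cause was not tested in any of these. Cyr61 stayed called in pericyte-gated wells in all 10 alternatives. Few fibroblast-gated wells in mice 3 and 6 and the low counts of Wisp2 limit every value of that gene.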
